A study of Homo sapiens with 33 samples.

Results

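NLRP11 and the leukocyte immunoglobulin-like receptor genes (LILR) lie in the receptor-dense end of the long arm of human chromosome 19, and 10 genes from there were followed across the series: NLRP11, NLRP4, LILRB1, LILRB2, LILRB3, LILRB4, LILRA1, LILRA2, LILRA4 and LAIR1. They were taken by symbol from 62446 gene rows in 33 RNA-seq libraries, and each symbol matched 1 row. They were chosen by their counts in the untreated TLE1 knockout against its untreated parental line, where NLRP11 and LILRB4 led the rises. That comparison and those sharing its libraries are therefore described without a test. The other comparisons were tested across all genes. The genes were labelled as raised in the knockout, which holds in these data under every condition for NLRP11 and LILRB4. LILRB2 was also slightly higher in the untreated knockout, but lower than in Nalm6 under both glucocorticoids.

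LILRB proteins are inhibitory receptors of leukocytes whose cytoplasmic motifs recruit the phosphatases SHP-1 and SHP-2 (genes PTPN6 and PTPN11). LILRA proteins lack those motifs and mostly signal through the adaptor FCER1G, and LAIR1 is an inhibitory receptor for collagen. Many of them bind HLA class I molecules, and most are best known from monocytes, dendritic cells and some B cells. NLRP11 and NLRP4 are intracellular proteins of the NLR family, which includes sensors that assemble inflammasomes.

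The libraries came from acute lymphoblastic leukaemia (ALL) cell lines, 3 per group in 11 groups, with RNA taken 24 h after treatment. Parental Nalm6, a B-cell precursor line, was untreated or received the Wnt agonist CHIR-99021 at 0.5 µM, prednisolone at 5 µM, or dexamethasone at 100 nM with an untreated group of its own (the dexamethasone set). The TLE1 knockout, Nalm6 cells edited with CRISPR/Cas9 in the gene of the co-repressor TLE1, was untreated or received prednisolone at 5 µM or dexamethasone at 100 nM. CEM, a T-cell line, was untreated or received CHIR-99021 at 2 µM or prednisolone at 10 µM. All Nalm6 and knockout cells grew in medium with charcoal-stripped serum. The labels do not say whether the knockout is a clone or a pool, and a single edited line cannot tell the loss of TLE1 apart from other differences between that line and its parent. The dexamethasone-treated knockout has no untreated group of its own set. Its library numbering differs from that of dexamethasone-treated Nalm6, so the library set may have changed with the line there.

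The column of counts used held between 25292579 and 61930057 reads on genes in a library. Levels are given as CPM, counts scaled to the gene total of the library, and 3 counts, the limit used for a gene at 0, equal 0.0484 to 0.119 CPM. Log2 fold changes (log2FC) carry their SE, and a call is an adjusted p under 0.05. The TLE1 transcript was at 24.0 to 25.4 CPM in the untreated knockout and 30.2 to 34.0 CPM in untreated Nalm6, at 54.5 to 69.0 against 110 to 116 CPM under prednisolone, and at 55.3 to 59.0 against 129 to 134 CPM under dexamethasone; transcript level does not measure the protein. All 10 B-precursor markers reached 1 CPM in each Nalm6 and knockout group, and all 10 T-lineage markers did so in CEM. In each CEM group 7 B-precursor markers also reached 1 CPM, and in each Nalm6 and knockout group 1 T-lineage marker did. In the untreated dexamethasone set CD8A was the only T-lineage marker with no read. Of the 12 myeloid markers, S100A8 and FCGR3A had no read in any Nalm6 or knockout library, and the summed level was 17.3 to 36.2 CPM in those libraries against 0.760 to 1.36 CPM in CEM. In the knockout under dexamethasone the sum rested mainly on SPI1 (17.2 CPM) and CD33 (8.30 CPM), with mean CD14, CSF1R, ITGAM and CD68 at 0.0114 to 0.133 CPM. In bulk RNA, more cells with a transcript and more transcript per cell cannot be told apart.

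The upstream sequence of the 5 receptor genes the results turn on is shown first, so that their likeness can be read beside their levels. RefSeq promoter windows (build GRCh38.p14) were found for 9 of the 10 genes. The stretches below stop before the first annotated exon, and that of LILRA1 is cut to the length of the next 2. RefSeq gives several starts to LILRA1, LILRB1, LILRB2 and LILRA2. For LILRB1 and LILRB2 the start shown was picked because it aligns with the first of LILRA1, so their likeness follows from that choice. Capitals mark CTTTGA (the TCF/LEF core), TGTGGT (the RUNX core), GAGGAA (the PU.1 core) or TGTTCT (a hexamer of glucocorticoid response elements), searched on both strands.
LILRA1, chr19:54593382-54593557, plus strand, 250 to 75 bases before the start: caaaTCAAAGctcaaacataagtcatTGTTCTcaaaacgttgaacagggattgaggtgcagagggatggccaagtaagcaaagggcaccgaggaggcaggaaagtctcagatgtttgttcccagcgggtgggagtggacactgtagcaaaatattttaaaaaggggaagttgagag
LILRB1, chr19:54630234-54630409, plus strand, 250 to 75 bases before the start: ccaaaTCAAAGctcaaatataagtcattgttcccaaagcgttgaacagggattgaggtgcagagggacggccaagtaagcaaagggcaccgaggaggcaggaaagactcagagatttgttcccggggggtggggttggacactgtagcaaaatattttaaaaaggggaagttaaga
LILRB2, chr19:54281185-54281360, minus strand, 250 to 75 bases before the start: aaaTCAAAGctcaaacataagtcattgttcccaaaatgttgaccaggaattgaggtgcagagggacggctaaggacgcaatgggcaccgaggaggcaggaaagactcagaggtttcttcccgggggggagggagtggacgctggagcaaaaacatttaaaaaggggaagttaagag
LILRA2, chr19:54573540-54573697, plus strand, 250 to 93 bases before the start: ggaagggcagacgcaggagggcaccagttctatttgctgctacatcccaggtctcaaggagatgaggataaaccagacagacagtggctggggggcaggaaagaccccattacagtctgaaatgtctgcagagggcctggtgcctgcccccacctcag
LILRB4, chr19:54662735-54662818, plus strand, 250 to 167 bases before the start: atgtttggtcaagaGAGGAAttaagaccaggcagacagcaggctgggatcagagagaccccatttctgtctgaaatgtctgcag

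The stretches of LILRA1 and LILRB1 were identical at 163 of 175 aligned bases (93.1%), those of LILRB1 and LILRB2 at 155 of 174 (89.1%), and those of LILRA1 and LILRB2 at 154 of 175 (88.0%). LILRA2 and LILRB4 shared 65 of 83 aligned bases (78.3%). From its other start, LILRA1 matched LILRA2 about as closely, at 200 of 223 bases (89.7%) of the whole windows, and LILRB2 from another start matched LILRA2 at 204 of 230 (88.7%). The TCF/LEF core was found once in each of LILRA1, LILRB1 and LILRB2, and 8.47% of all 35116 promoter windows hold it in a stretch of that length. These matches lie in stretches picked for their likeness, so they are not independent, and the windows at the other starts of these genes did not hold it. LILRA1 alone of the 5 held TGTTCT, present in 9.03% of all such stretches. This hexamer was added to the search after the levels were seen, and windows of NLRP4 and LAIR1, not printed, hold it too. LILRB4 held the PU.1 core, present in 8.53% of all promoters over the same 84 bases. None of the printed stretches held the RUNX core, which 7.87% of promoters hold in a stretch as long as that of LILRA1; the window of LILRA2 holds it 1 time in the part that is not printed. A match is a string of letters and shows no binding. The starts of NLRP11 and NLRP4 lie 35 bases apart on opposite strands, and that window is covered by annotated exons and is not printed.

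NLRP11 was high in the knockout under every condition and low everywhere else. The untreated knockout libraries held 7.44, 7.71 and 8.32 CPM and those of untreated Nalm6 0.194, 0.347 and 0.209 CPM, a log2FC of 5.01 ± 0.17. This is the comparison that chose the gene. Of the 7 members fitted there, NLRP11, LILRB4 and LILRB2 lay above Nalm6 without overlap, as did 19.7% of all genes, and LILRA4 and LAIR1 below, as did 24.5%. Under prednisolone the knockout libraries held 232, 169 and 155 reads (6.29, 5.57 and 5.19 CPM) and the parental libraries 0, 3 and 1. The groups did not overlap, and the ratio of depth-scaled counts was 201 (95% exact interval 78.2 to 742 for counting error). Under dexamethasone the reads were 184, 143 and 221 in the knockout (6.68 ± 0.955 CPM, SD, n = 3) and 1, 3 and 1 in the parental line. That ratio was 169 (72.1 to 524), again without overlap. NLRP11 passed the filter on low counts through the knockout alone, so no p is given. The parental mean was itself lower with prednisolone than without (0.0247 against 0.250 CPM). It was also lower with dexamethasone than in its own untreated group (0.0402 against 0.383 CPM), and both falls raise these ratios. Parental reads were too few to compare its knockout effects under the 2 glucocorticoids.

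LILRB4, an inhibitory receptor also known as ILT3, was the other gene higher in the knockout under every condition. Without treatment, knockout libraries held 7.61, 6.76 and 7.29 CPM and parental ones 0.436, 0.530 and 0.557 CPM, a described log2 difference of 3.85 ± 0.13. Under prednisolone the knockout had 6.39, 5.14 and 5.32 CPM and the parental line 0.645, 0.683 and 0.375 CPM. No parental library reached any knockout library, and LILRB4 was 9.90-fold higher in the knockout (log2FC 3.39 ± 0.20; edgeR adjusted p = 5.18e-08). Under dexamethasone it reached 16.4, 17.6 and 16.8 CPM in the knockout and 2.17, 1.80 and 2.28 CPM in the parental line, again without overlap. This was 8.13-fold (log2FC 3.03 ± 0.09; edgeR adjusted p = 9.29e-17), a difference in effect of -0.37 ± 0.23 from that under prednisolone that was not called (edgeR adjusted p = 0.284). The knockout level under dexamethasone was thus the highest of all 11 groups for LILRB4, and its values overlapped with those of no other group. That knockout group has no control of its own set, so its dexamethasone response was not tested. The library set may also have changed with the line under dexamethasone, and the 2 could then not be told apart.

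**Figure D1:**
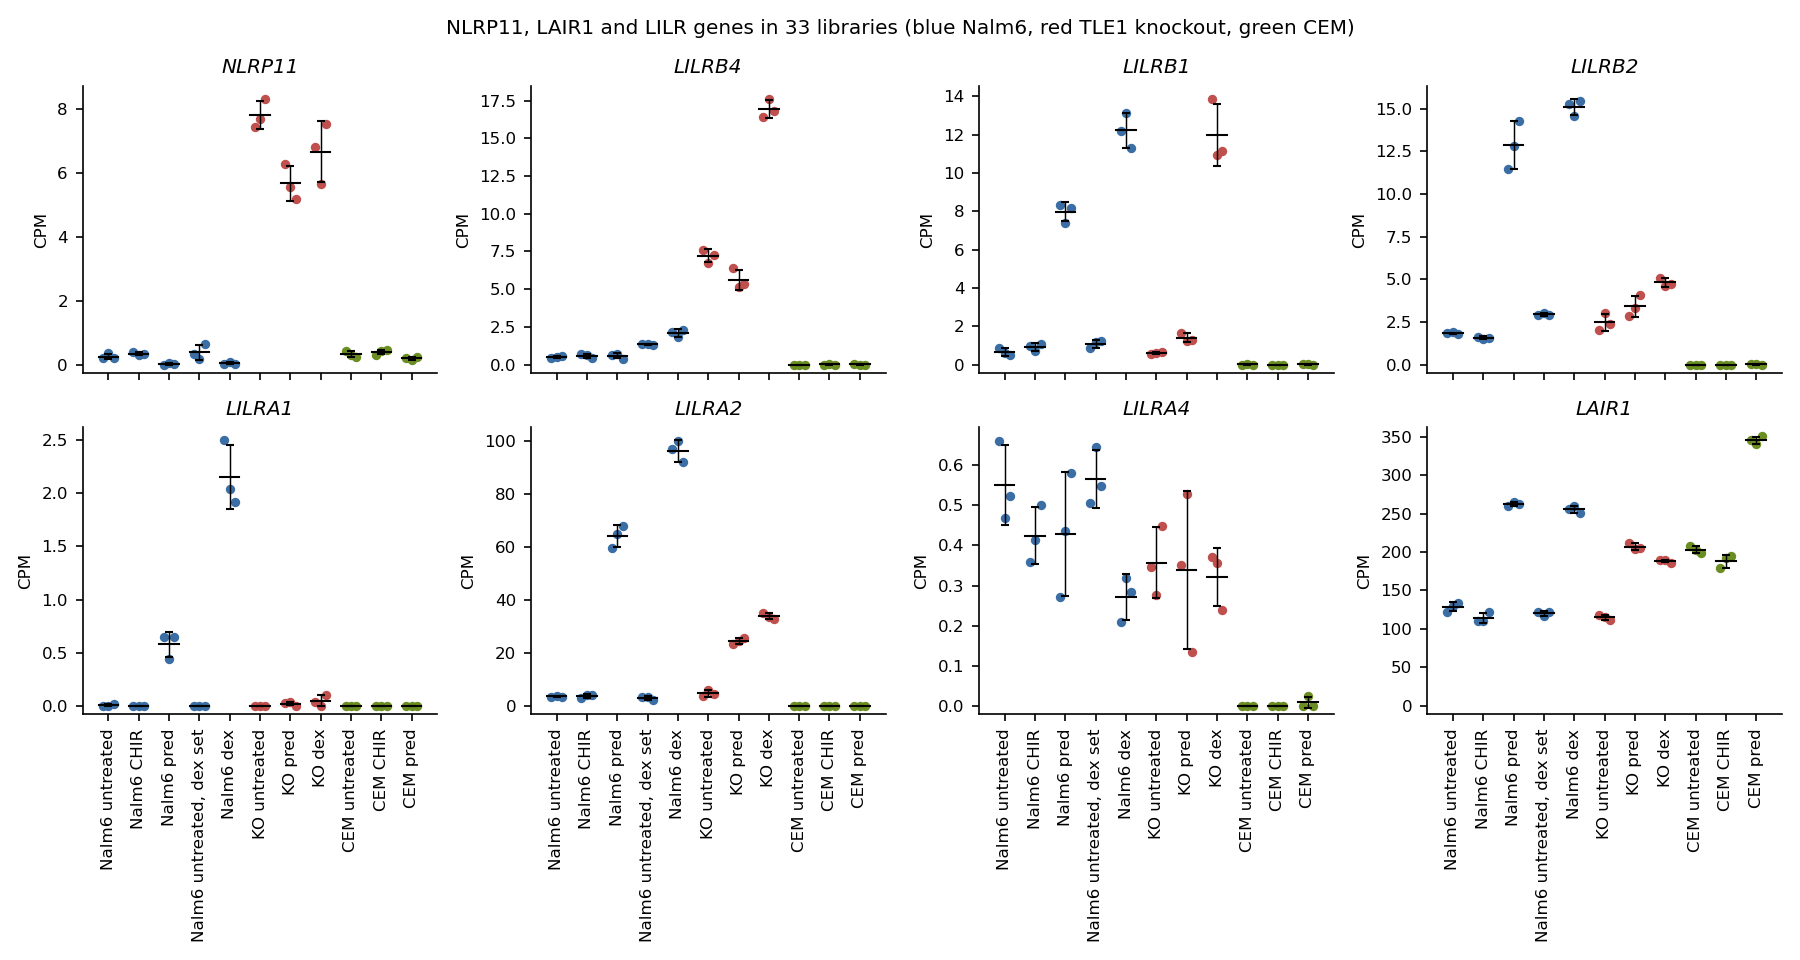
CPM of 8 genes in each of 33 libraries (points; 3 per group), with the group mean and SD as black lines; every panel has its own axis. NLRP11 and LILRB4 were high in the knockout groups (red), whereas LILRB2, LILRA1 and LILRA2 were highest in parental Nalm6 under dexamethasone (blue), LILRB1 was high in Nalm6 and in the knockout under dexamethasone, with overlap, and CEM (green) held LAIR1 but almost no LILR reads.

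The neighbours did not follow LILRB4, although LILRA2, LILRA1, LILRB1 and LILRB4 lie close together, at ranks 62, 64, 66 and 68 of the annotated stretch. Of the 8 members tested under prednisolone, 2 were higher and 5 lower in the knockout; over all 17286 genes tested 16.8% were called higher and 15.6% lower. Under dexamethasone 2 were higher and 4 lower, where 28.5% and 28.1% of 16763 genes were called. NLRP11 and LILRA1 passed the filter on low counts through the group where they were high, so those counts are a description. The tested members had a median log2FC of -0.86 under prednisolone and -0.22 under dexamethasone, against -0.01 and -0.00 over all genes. The summed myeloid markers were 17.3 to 18.3 CPM in the knockout and 19.9 to 21.8 CPM in Nalm6 under prednisolone, and 25.8 to 30.4 against 27.4 to 28.6 CPM under dexamethasone; their part in these differences was not tested.

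LILRA2, an activating receptor, was lower in the knockout under both glucocorticoids. Under prednisolone it was at 23.5, 24.5 and 25.7 CPM in the knockout and 59.6, 65.1 and 67.9 CPM in parental Nalm6. The log2FC was -1.35 ± 0.06 (edgeR adjusted p = 4.03e-09), with every knockout library below every parental one. Under dexamethasone the levels were 35.0, 33.6 and 32.8 CPM against 96.9, 99.9 and 92.0 CPM, a log2FC of -1.50 ± 0.04 (edgeR adjusted p = 6.42e-18). Untreated, the groups overlapped, at 4.62 ± 1.16 CPM in the knockout and 3.51 ± 0.160 CPM in Nalm6 (SD, n = 3). Against the untreated dexamethasone set, at 2.16 to 3.24 CPM, the untreated knockout was higher without overlap, at 3.58 to 5.87 CPM (described log2 difference 0.66).

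LILRB2, an inhibitory receptor for HLA class I, had the same order as LILRA2 among the glucocorticoid-treated Nalm6 and knockout groups, but not among the other groups. The knockout libraries under prednisolone were at 2.87, 3.30 and 4.08 CPM and the parental ones at 11.5, 12.8 and 14.3 CPM, a log2FC of -1.89 ± 0.13 (edgeR adjusted p = 1.75e-07). Under dexamethasone they were at 5.09, 4.63 and 4.71 CPM against 15.2, 14.6 and 15.5 CPM (-1.64 ± 0.08; edgeR adjusted p = 1.32e-13). Neither pair of groups overlapped. Without treatment LILRB2 was slightly higher in the knockout, at 2.46 ± 0.497 against 1.83 ± 0.0421 CPM (described log2 difference 0.46 ± 0.15), but not against the untreated dexamethasone set at 2.94 ± 0.0697 CPM, which it overlapped.

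LILRA1, an activating receptor, was read almost only in parental cells given a glucocorticoid. Parental libraries had 108, 83 and 81 reads under dexamethasone, and the knockout had 1, 0 and 3. The ratio was 44.0 in favour of the parental line (95% exact interval 17.0 to 163). Under prednisolone the parental libraries had 19, 23 and 38 reads and the knockout 1, 1 and 0, a ratio of 27.6 (7.39 to 232). The groups did not overlap, and no p is given because LILRA1 passed the filter through the parental cells alone. All 9 CEM libraries were at 0, and the 12 untreated or CHIR-treated Nalm6 and knockout libraries held 1 LILRA1 read between them.

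LILRB1, an inhibitory HLA class I receptor, was the member whose knockout effect differed between the 2 glucocorticoids. Under prednisolone it was at 1.65, 1.25 and 1.30 CPM in the knockout and 8.35, 7.40 and 8.19 CPM in Nalm6, a log2FC of -2.45 ± 0.14 (edgeR adjusted p = 3.40e-08). Under dexamethasone the knockout libraries were at 13.8, 10.9 and 11.2 CPM and the parental ones at 12.2, 13.1 and 11.3 CPM. These groups overlapped, with a log2 difference of -0.02 ± 0.08 (edgeR adjusted p = 0.882). The difference between the knockout effects was 2.42 ± 0.17 (edgeR adjusted p = 7.35e-09), and no other member of the 8 tested was called. Over all 17872 genes 22.0% were called. LILRA2 passed the threshold when Nalm6 prednisolone replicate 3 was left out (-0.19; edgeR adjusted p = 0.0482), and LAIR1 when knockout prednisolone replicate 2 was left out (-0.16; edgeR adjusted p = 0.0448). The drug, its dose and the set of libraries changed together in this comparison and cannot be told apart.

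LAIR1 was slightly lower in the knockout, and LILRA4 was not called. LAIR1 was the most abundant member, at 206.8 ± 4.42 against 262.3 ± 2.42 CPM under prednisolone (log2FC -0.30 ± 0.05; edgeR adjusted p = 0.000186) and at 188 ± 1.68 against 255 ± 4.75 CPM under dexamethasone (-0.43 ± 0.03; edgeR adjusted p = 5.36e-11). LILRA4, a receptor of plasmacytoid dendritic cells that binds BST2, was at 0.338 ± 0.197 against 0.429 ± 0.154 CPM under prednisolone (-0.37 ± 0.41; edgeR adjusted p = 0.532). Under dexamethasone LILRA4 was at 0.322 ± 0.0723 against 0.271 ± 0.0571 CPM (0.25 ± 0.36; edgeR adjusted p = 0.586). Its groups overlapped in both comparisons, and differences of the size of these errors were not detectable at this depth.

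**Figure D2:**
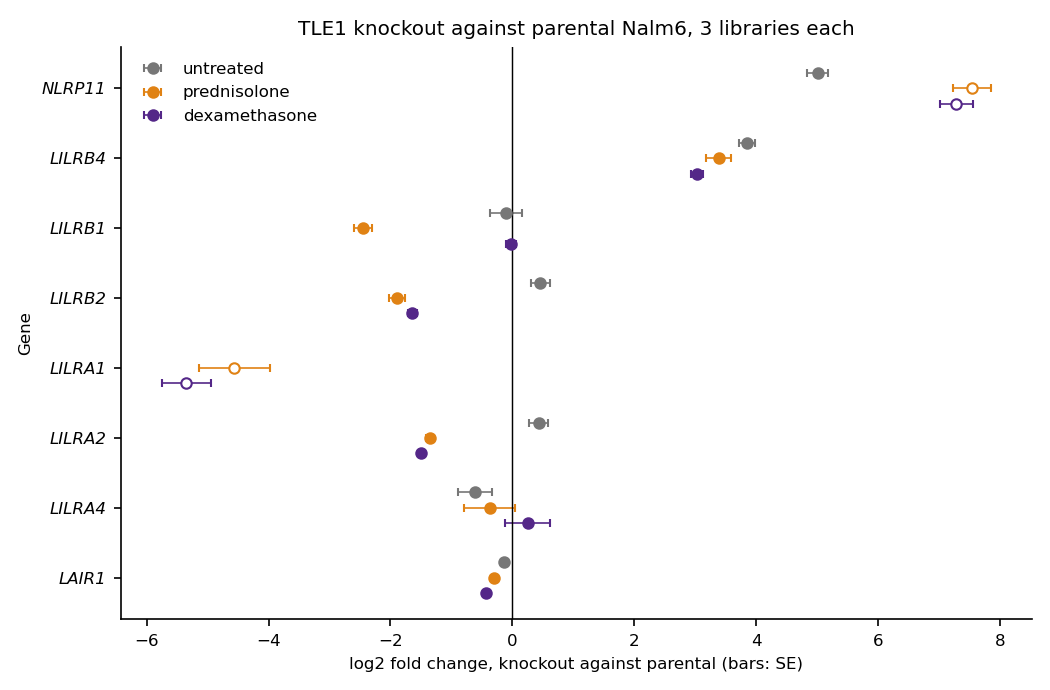
Log2 fold changes of 8 genes in the TLE1 knockout against parental Nalm6 (x axis; bars are SE, 3 libraries per group) untreated, under prednisolone and under dexamethasone. Open symbols mark genes with very few reads in the lower group, whose fitted value depends on the prior count. NLRP11 and LILRB4 lie to the right in all 3 conditions, and LILRB1 lies at -2.45 under prednisolone and at -0.02 under dexamethasone.

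NLRP4 and LILRB3 gave no usable level. NLRP4, which starts beside NLRP11 on the other strand, had 2 reads in all 33 libraries, 1 of them in the untreated knockout. The neighbour with the closest start therefore did not follow NLRP11 at this depth. LILRB3, an inhibitory receptor, had 3 sense reads in all 33 libraries, while 1311 reads lay on the opposite strand, 10 to 94 in each library. The annotation places RPS9, a ribosomal protein gene with group means of 484 to 942 CPM, over LILRB3 on that strand. For the other LILR genes, NLRP11 and LAIR1, 99.6% to 99.9% of reads were in the sense column, except LILRA4 with 81.2%.

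**Figure D3:**
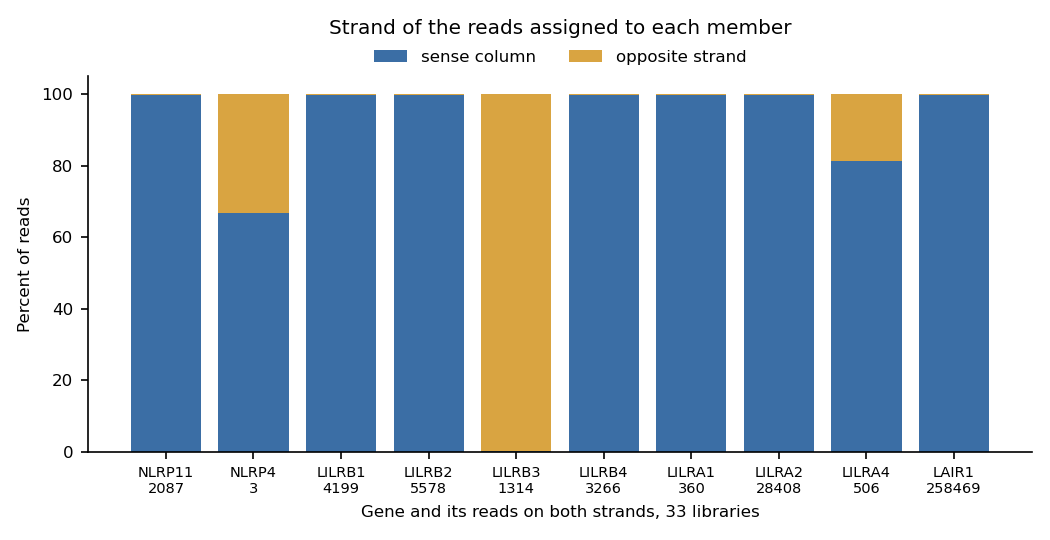
Percent of the reads assigned to each gene on its own strand (blue) and on the opposite strand (yellow), summed over 33 libraries, with the number of reads under each name. LILRB3 had 99.8% of its reads on the opposite strand, LILRA4 18.8%, and NLRP4 only 3 reads in all.

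Across the annotated stretch from NLRP12 to NLRP5, which holds 168 genes, 149 non-members were in the files. Under prednisolone 50 of them could be tested, of which 5 were higher and 9 lower in the knockout, led by OSCAR, CDC42EP5 and MYADM-AS1. Over all genes 16.8% were called higher and 15.6% lower there, and the lower share of the neighbours was near that. Under dexamethasone 5 were higher and 22 lower of 50, led by CDC42EP5, OSCAR and LAIR2, where 28.5% of all genes were called higher and 28.1% lower. OSCAR, an activating receptor for collagen, was at 0.225 ± 0.0221 against 0.967 ± 0.0665 CPM under prednisolone, a log2FC of -2.05 ± 0.28. CDC42EP5, a regulator of septins, was at 0.330 ± 0.106 against 1.38 ± 0.181 CPM under dexamethasone, a log2FC of -2.04 ± 0.27. OSCAR and CDC42EP5 passed the filter on low counts through the parental group, so no p is given for them. The median log2FC of these neighbours was -0.10 under prednisolone and -0.12 under dexamethasone. Of the 26 other receptor and NLRP genes listed for the region, 2 could be tested in either comparison, OSCAR and LAIR2. LAIR2 was called under dexamethasone (-0.99 ± 0.34), where it also entered through the parental group and no p is given.

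**Figure D4:**
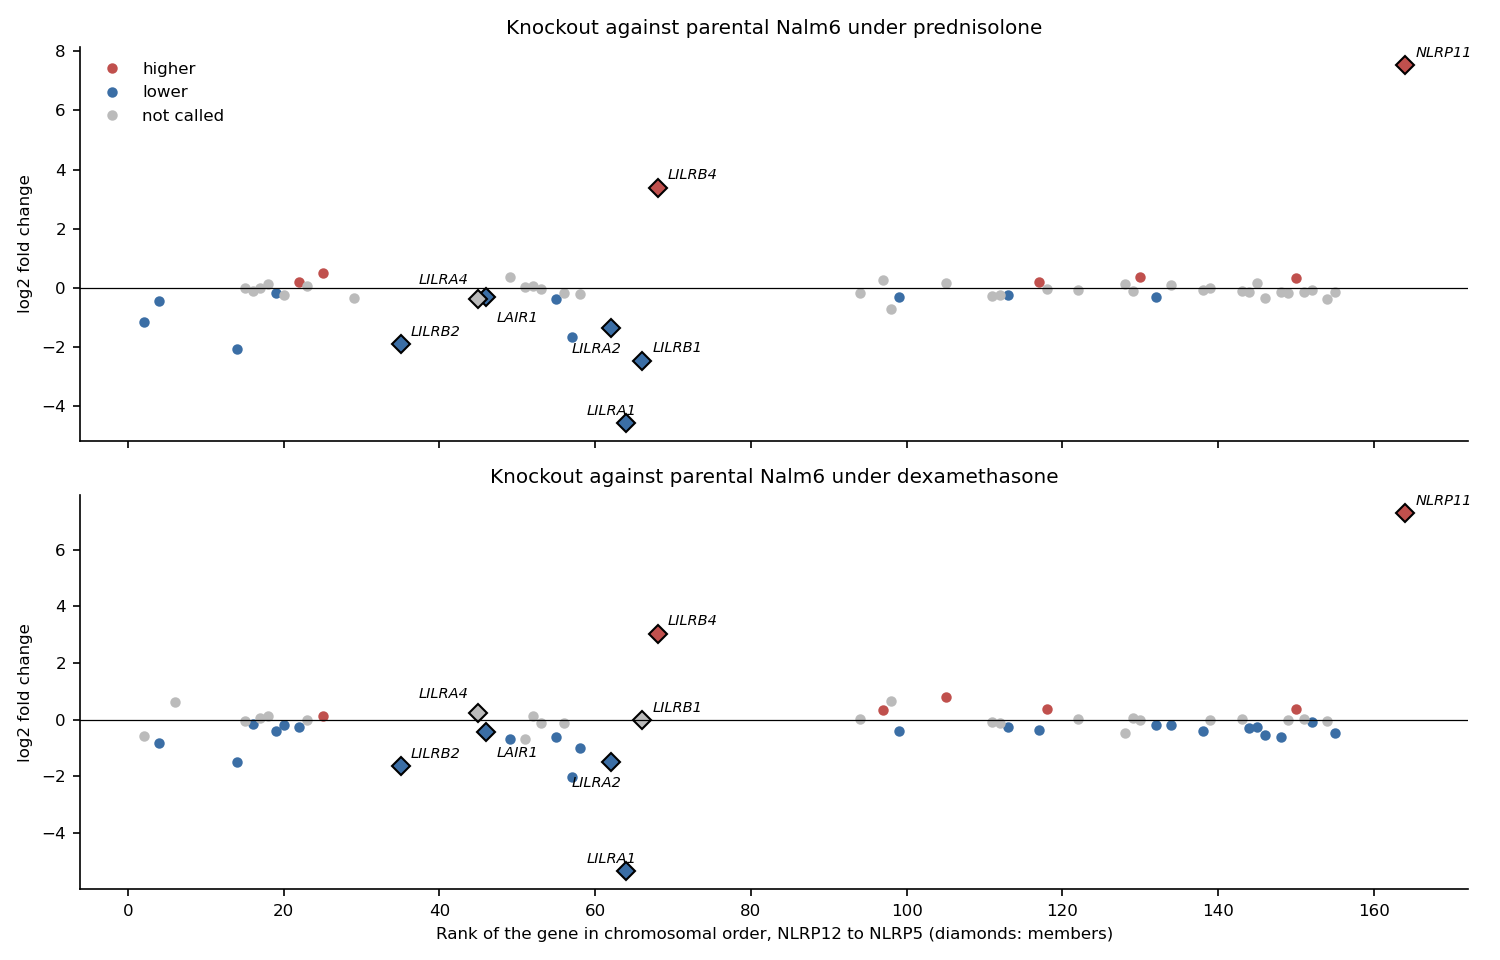
Log2 fold change of the knockout against parental Nalm6 (y axis) for each tested gene, placed by its rank in chromosomal order from NLRP12 to NLRP5 (x axis), under prednisolone and dexamethasone; red is called higher, blue lower, grey not called. LILRB4 at rank 68 was higher while LILRB1 at rank 66, LILRA1 at 64 and LILRA2 at 62 were lower or not called, and NLRP11 stood at rank 164.

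In parental Nalm6 dexamethasone raised 6 of the receptor genes. The treated libraries are the same as those set against the knockout above. LILRA2 went from 3.24, 3.20 and 2.16 CPM in its own untreated group to 96.9, 99.9 and 92.0 CPM, a 33.6-fold rise (log2FC 5.02 ± 0.09; edgeR adjusted p = 1.06e-14). LILRB1 rose 11.3-fold, from 0.859, 1.17 and 1.21 CPM (3.49 ± 0.12; edgeR adjusted p = 9.08e-12), and LILRB2 rose 5.14-fold, from 2.88, 3.02 and 2.91 CPM (2.33 ± 0.08; edgeR adjusted p = 8.35e-12). LILRA1 had no read in the 3 untreated libraries and 272 in the treated ones, at least 26.4-fold higher when each untreated library is set to 3 counts and with no p for the same reason. None of these groups overlapped. LAIR1 rose 2.13-fold (1.05 ± 0.04; edgeR adjusted p = 1.96e-11) and LILRB4 1.54-fold (0.59 ± 0.15; edgeR adjusted p = 0.00422).

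LILRA4 and NLRP11 went the other way in those cells. LILRA4 was at 0.271 ± 0.0571 CPM with dexamethasone and 0.567 ± 0.0719 CPM without (log2FC -1.08 ± 0.29). It passed the filter on low counts through the untreated group, so no p is given. NLRP11 was under the filter on low counts, with 1, 3 and 1 reads in treated and 15, 6 and 22 reads in untreated libraries, a ratio of 9.62 (95% exact interval 3.82 to 31.1). The fit without the filter gave it -3.21 ± 0.58. Its reads lay almost only in the untreated group, so no p is given. In that comparison 6 of 7 members tested were higher and 1 lower, where 30.2% of all 17217 genes tested were called in each direction. LILRA1 entered through the treated group alone and LILRA4 through the untreated group. Of the 52 tested non-members of the region, 17 were higher and 14 lower, led by SYT5 (-1.98), AC245052.4 (1.71) and LAIR2 (1.59 ± 0.33). CDC42EP5 was also higher (1.48 ± 0.24) and OSCAR lower (-0.98 ± 0.21). The median log2FC was 0.09 for these non-members and 2.33 for the members.

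Prednisolone gave values side by side with these in Nalm6, though its untreated libraries had served to choose the genes. LILRA2 was at 64.2 ± 4.20 against 3.51 ± 0.160 CPM, a described log2 difference of 4.17 ± 0.07. LILRB1 stood at 3.55 ± 0.15, LILRB2 at 2.80 ± 0.10 and LAIR1 at 1.00 ± 0.04 on the same scale, all without overlap, and LILRB4 overlapped its controls (0.10 ± 0.27). NLRP11 lay below its controls without overlap, at 0 to 0.0569 against 0.194 to 0.347 CPM (-3.03). LILRA1 lay above its controls without overlap (6.07), and both of these had very few reads in the lower group. LILRA4 overlapped (-0.32). Groups of 34.2% of all genes did not overlap upward and of 26.7% downward. In the knockout the same drug left LILRA2 at 2.36 ± 0.15 above its untreated group, LILRB1 at 1.18 ± 0.22, LAIR1 at 0.81 ± 0.06 and LILRB2 at 0.42 ± 0.18, the last with overlap. NLRP11 and LILRB4 were lower under prednisolone than without it in the knockout, by -0.50 ± 0.12 and -0.39 ± 0.12, and neither overlapped. Upward, 29.3% of all genes did not overlap there, and 23.5% downward. The difference between the lines in this response was not tested, since it rests on the libraries that chose the genes.

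**Figure D5:**
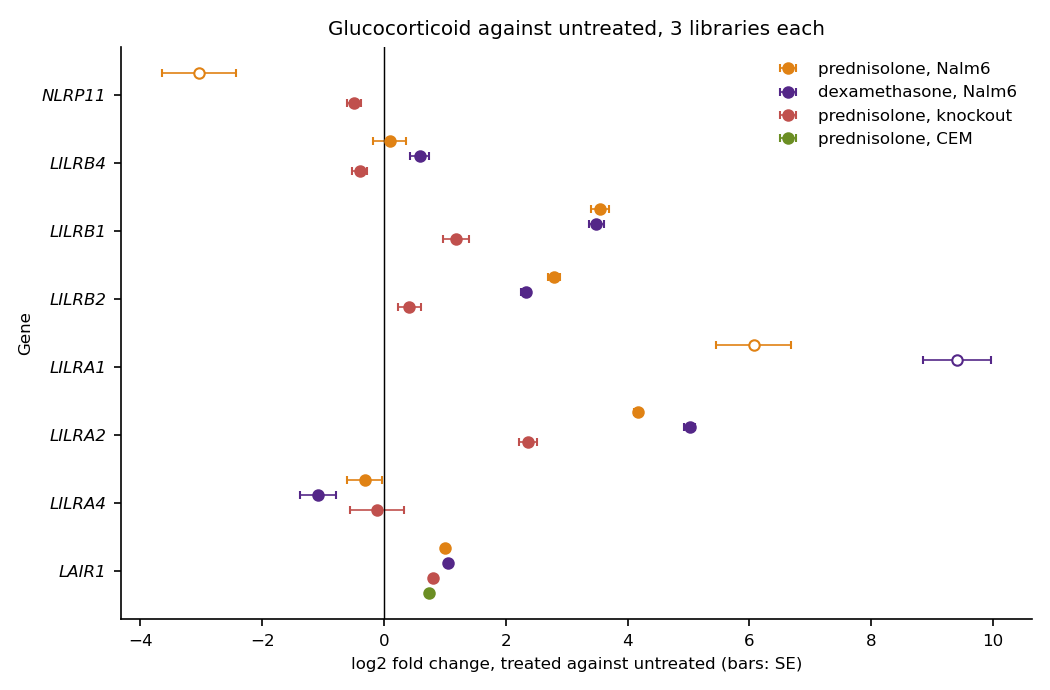
Log2 fold changes of 8 genes under a glucocorticoid against untreated cells (x axis; bars are SE, 3 libraries per group) in Nalm6, the knockout and CEM; open symbols mark genes with very few reads in the lower group. LILRA2 lies at 5.02 (dexamethasone) and 4.17 (prednisolone) in Nalm6 and at 2.36 in the knockout, and LAIR1 lies between 0.74 and 1.05 in all 4 comparisons.

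Under CHIR-99021 most members overlapped their untreated levels. In Nalm6 LILRB1 was at 0.904 ± 0.195 against 0.656 ± 0.192 CPM (described log2 difference 0.45 ± 0.25, and 0.73 without untreated replicate 1) and LILRA4 at 0.425 ± 0.0719 against 0.551 ± 0.0996 CPM (-0.37 ± 0.24), both with overlap. NLRP11 was at 0.332 ± 0.0458 CPM and LILRB4 at 0.583 ± 0.139 CPM, both overlapping the untreated group at 0.250 ± 0.0843 and 0.508 ± 0.0637 CPM. LILRB2 (described log2 difference -0.23 ± 0.12) and LAIR1 (-0.17 ± 0.05) lay below without overlap, as did 15.9% of all genes, while 14.0% lay above. For LAIR1 the groups only just parted, with the highest treated library at 122.16 CPM and the lowest untreated one at 122.22 CPM. In CEM neither of the 2 members tested was called: LAIR1 was at 188 ± 8.39 against 203 ± 4.49 CPM (-0.09 ± 0.04; edgeR adjusted p = 0.184, unadjusted p = 0.0439) and NLRP11 at 0.391 ± 0.0760 against 0.326 ± 0.0998 CPM (0.22 ± 0.31; edgeR adjusted p = 0.722). In that comparison 10.8% of genes were called, and DESeq2 likewise called 0 members.

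CEM carried LAIR1 but almost none of the LILR transcripts. LAIR1 was at 207, 203 and 198 CPM in untreated CEM and 122, 116 and 122 CPM in untreated Nalm6 of the dexamethasone set (log2FC 0.72 ± 0.04; edgeR adjusted p = 2.84e-09). Untreated CEM had no read of LILRB2, LILRB4, LILRA2 or LILRA4. With each CEM library set to 3 counts, Nalm6 was at least 40.1-fold higher for LILRB2, 39.2-fold for LILRA2, 18.5-fold for LILRB4 and 7.75-fold for LILRA4. LILRB1 had 1 read in CEM and 119 in Nalm6, a ratio of 133 (95% exact interval 23.4 to 5284). These 5 were called lower in CEM and LAIR1 higher, where 37.3% of 18018 genes were called lower and 40.2% higher. The 5 passed the filter through Nalm6 alone, and with at least 10 counts required in every library LAIR1 was the 1 member called. NLRP11 did not differ detectably between the lines, at 0.326 ± 0.0998 CPM in CEM and 0.383 ± 0.229 CPM in Nalm6 (-0.23 ± 0.40; edgeR adjusted p = 0.612).

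Prednisolone in CEM raised LAIR1 from 203 ± 4.49 to 345 ± 4.99 CPM (log2FC 0.74 ± 0.03; edgeR adjusted p = 1.11e-12). It was the 1 member tested there, and 45.1% of genes were called. NLRP11 held 9, 6 and 8 reads with the drug and 20, 14 and 8 without, and was below the filter; the fit without it gave -0.80 ± 0.40 (edgeR adjusted p = 0.161). All LILR genes stayed at or under 3 reads in each CEM library.

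The order of levels over the 11 groups differed between members. NLRP11 and LILRB4 had all 3 knockout groups on top, and for NLRP11 those 3 overlapped their neighbours in the order. LILRB2 and LILRA2 ran from Nalm6 under dexamethasone down through Nalm6 under prednisolone and the knockout under dexamethasone to the knockout under prednisolone, without overlap between these neighbours in the order. For LILRB1 the first places, Nalm6 and the knockout under dexamethasone, overlapped. LAIR1 was highest in CEM under prednisolone. Per kilobase of annotated exon, the highest group mean was 42.8 CPM for LAIR1, 18.0 for LILRA2, 3.96 for LILRB2, 2.68 for LILRB4, 2.44 for LILRB1, 1.81 for NLRP11, 0.601 for LILRA1 and 0.261 for LILRA4.

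The 2 untreated Nalm6 groups were not alike for every member. LILRB4 was at 1.34, 1.38 and 1.33 CPM in the dexamethasone set and at 0.436, 0.530 and 0.557 CPM in the other (described log2 difference 1.47 ± 0.18), and LILRB2 differed by 0.74 ± 0.11, both without overlap. Without overlap, 22.7% of all genes lay higher in the dexamethasone set and 35.5% lower. The summed myeloid markers were 31.7 to 36.2 CPM in the dexamethasone set and 23.7 to 26.1 CPM in the other, and their part in this was not tested. Against the dexamethasone set the untreated knockout was still higher, by 2.39 ± 0.12 for LILRB4 and 4.31 ± 0.24 for NLRP11 (described log2 differences), where 27.5% of all genes lay above without overlap and 21.2% below. LILRA2 also lay above that set without overlap (0.66), and LILRB1 (-0.84) and LILRA4 (-0.68) lay below it without overlap.

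Genes that signal with these receptors were read beside them. Over all genes 16.8% were called higher and 15.6% lower in the knockout under prednisolone, and 28.5% and 28.1% under dexamethasone, which the counts of these lists stand beside. Of the 8 signalling partners tested, LYN, PTPN6 and SYK were higher under prednisolone and none lower. Under dexamethasone 6 were higher, led by LYN, PTPN6 and BTK, and INPP5D and CSK were lower. LYN, the kinase that phosphorylates inhibitory motifs, was at 56.5 ± 2.82 against 34.7 ± 1.39 CPM under prednisolone (log2FC 0.74 ± 0.06; edgeR adjusted p = 6.97e-07) and at 77.4 ± 0.544 against 45.1 ± 1.27 CPM under dexamethasone (0.79 ± 0.03; edgeR adjusted p = 3.63e-14). PTPN6 was at 116 ± 2.08 against 72.2 ± 4.59 CPM under prednisolone (0.72 ± 0.06; edgeR adjusted p = 5.03e-07). FCER1G, the adaptor of LILRA proteins, was under the filter, at 0.202 ± 0.0965 CPM in the knockout and 0.159 ± 0.130 CPM in Nalm6 under prednisolone. The median of the 8 was 0.12 under prednisolone and 0.18 under dexamethasone.

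Among the ligands, 6 of 10 tested were higher and 2 lower in the knockout under prednisolone, and 3 of 11 were higher and 2 lower under dexamethasone, the higher share near the 28.5% of all genes. C1QA, a complement protein, was lower in both, at 0.160 ± 0.0682 against 0.533 ± 0.0536 CPM under prednisolone (log2FC -1.72 ± 0.37). It passed the filter on low counts through the parental group alone in both comparisons, so no p is given. ANGPTL2 was higher in both (0.78 ± 0.20 and 0.54 ± 0.22; edgeR adjusted p = 0.00951 and 0.0463), while HLA-F was called lower under dexamethasone (-0.52 ± 0.04; edgeR adjusted p = 6.29e-11). APOE was called lower under prednisolone (-1.03 ± 0.31), where it entered through the parental group, so no p is given.

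Of 11 inflammasome and NLRP11 pathway genes tested, 3 were higher and 4 lower under prednisolone, and 3 and 5 under dexamethasone, where the share higher was near the 28.5% of all genes. CASP1, IL1B and NLRP6 led in both. CASP1, the inflammasome protease, was at 6.95 ± 0.483 against 3.05 ± 0.258 CPM under prednisolone (log2FC 1.24 ± 0.12; edgeR adjusted p = 3.52e-06) and at 9.76 ± 1.03 against 2.47 ± 0.363 CPM under dexamethasone (1.99 ± 0.11; edgeR adjusted p = 3.80e-12). IL1B, an inflammasome substrate, was lower in the knockout, by -1.95 ± 0.30 and -1.37 ± 0.33. It passed the filter on low counts through the parental group in both comparisons, so no p is given. NLRP6 was lower too, at 4.53 ± 0.496 against 13.4 ± 0.405 CPM under prednisolone (-1.54 ± 0.10; edgeR adjusted p = 9.31e-08). Of the myeloid markers, 4 could be tested, and CEBPA and CD33 were lower under prednisolone and CEBPA under dexamethasone.

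The genes whose levels most resembled NLRP11 over the 11 group means, among 15960 genes compared by Pearson's r of log2(CPM + 0.1), were METTL15 (0.98), KCP (0.97) and MCC (0.97). For LILRB4 they were ERCC2, NAALADL2 and NOL4, each at 0.98. These are descriptions over group means that share the same libraries. NLRP11 and LILRB4 stood at 0.69 with each other, below LILRB2 with LILRA2 (0.98) and LILRB1 with LILRA2 (0.96).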

How the data were processed

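The members and the gene lists were chosen with earlier results of these data known. The authors deposited raw read counts per gene, in the 4-column layout that STAR writes; the submitters' processing notes name Bowtie2, DESeq2 and the build hg19, with no role. Column 4 (12.3 to 15.3 times the gene total of column 3) was used; rows naming no gene, 36.0% to 49.2% of reads, stayed out. Multimapping reads stand in a row apart from the genes, per the file headers, so LILR genes are uncertain where copies match. Samples were grouped by title, although the protocol text gives the drugs to the lines differently. The labels state 3 independent experiments for some groups; elsewhere p-values measure only the spread between these libraries, which may be technical.

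Each comparison was fitted on its own groups with edgeR 4.0.16 in R 4.3.3 (filterByExpr, TMM, quasi-likelihood F test, Benjamini-Hochberg over all genes tested, called at an adjusted p under 0.05); SE is derived from F. CPM was scaled to the column 4 total, given as mean ± SD with n = 3. Exact intervals are Clopper-Pearson at 95% and cover counting error only, as the reads carry no molecular identifiers. On simulated data for the prednisolone comparison of the lines (17286 genes), 91.0% of genes changed by a log2 of 1 and 98.97% of those changed by 2 were recovered. For the difference between knockout effects (17872 genes) these shares were 74.75% and 94.0%. The simulated counts had the same dispersion for every gene, so these shares do not describe genes with more spread between replicates. Every member is named; of other lists the 3 largest called. Replicate pairs differed by more than sampling noise. Same-numbered libraries deviated together in the prednisolone comparison of the lines (r 0.101 to 0.185 over 11863 genes), and blocking by number changed no member's call there. Symbols came from the supplied name table and exon lengths and gene order from GENCODE v29 on GRCh38, so gene coordinates in the authors' build are not given. TGTTCT was added to the motifs after the values were seen. The alternatives were size factors (RLE), DESeq2 1.42.0, 2 other filters, the replicate block, column 2, 1 fit over all libraries, TMM-scaled levels and leaving out each library.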

Additional observations from a re-analysis of the deposited data

Results flagged for a closer look

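The knockout effect on LILRB1 differed between the glucocorticoids, tested as an interaction of line and drug: the effect under dexamethasone minus that under prednisolone was 2.42 on the log2 scale (edgeR adjusted p = 7.35e-09). Knockout libraries stood at 10.9 to 13.8 CPM under dexamethasone and at 1.25 to 1.65 CPM under prednisolone, while parental libraries stood at 11.3 to 13.1 and 7.40 to 8.35 CPM. The adjusted p ran from 6.37e-49 to 7.23e-08 over all alternatives.

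LILRB3 held 1311 reads on the strand opposite to its own, summed over 33 libraries and outside the column used for all comparisons, where it had 3. Scaled like CPM to the column 4 total, these reads stood at 0.278 to 1.86 in a library, highest in Nalm6 under CHIR-99021 (1.64 ± 0.190, SD, n = 3).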

How the results depend on the processing

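Every tested comparison kept its number of called members within 1.5 times under the alternatives, with these exceptions. With at least 10 counts required in every library, the difference between knockout effects under the 2 glucocorticoids had 2 called members in place of 1 (LAIR1 joined LILRB1, edgeR adjusted p = 0.0464), and CEM against Nalm6 had 1 in place of 6, since genes at 0 in CEM are then not tested. Leaving out 1 library at a time gave 1 to 2 called members for the former, and 1001 to 1948 called genes for CHIR-99021 in CEM against 1865. The count there was 1001 without treated replicate 2 and 1136, 1104 and 1064 without untreated replicates 1, 2 and 3. Differences near 0 changed sign. LILRB1 between the lines under dexamethasone was 0.00234 with all libraries in 1 fit and -0.124 to 0.0496 with 1 library left out. NLRP11 ran from -1.32 to 0.45 for the difference between knockout effects and from -0.53 to 0.25 for CEM against Nalm6, and LAIR1 between the untreated Nalm6 groups was 0.0231 in the unstranded column. Some described differences, which have no threshold, changed sign too. LILRB1 between the untreated lines went from -0.107 to 0.170 without untreated Nalm6 replicate 1. Under prednisolone, LILRB4 in Nalm6 went from 0.0980 to -0.108 without treated replicate 2. LILRA4 in the knockout went from -0.109 to 0.243 without treated replicate 3. Among member fold changes, tested or described, 553 values under the other settings and 500 with 1 library left out were counted as unchanged. The cause of these changes was not tested.

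With the replicate block, the prednisolone comparison of the lines called 7 members, as without it, and 6040 genes against 5612. Blocking changed no other call among members; in the other comparisons the libraries share only a number. Depth limits NLRP11 and LILRA1 in their low groups, and LILRA4 throughout.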
